A study of Homo sapiens with 6 samples.

Results

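The 10 genes described here encode the enzymes of de novo purine synthesis, the route by which a cell builds purine nucleotides from ribose phosphate, amino acids, carbon dioxide and folate-bound carbon. They were chosen by name: PRPS1, PPAT, GART, PFAS, PAICS, ADSL, ATIC, IMPDH1, IMPDH2 and GMPS. All 10 were found among the 57500 genes counted, and all 10 passed the filter on low counts with 15492 genes in all. RNA was sequenced from HepG2, a human hepatocarcinoma line, in 6 libraries of wild-type cells. In the control group (vehicle, n = 3) the cells received vehicle, and in the treated group (glycine, n = 3) 10 mM glycine was added, both for 24 h. All cells came from 1 established line, and per the study's methods the standard medium itself holds glycine, so that vehicle cells were not without it. Library totals were 31795489 to 58815986 counts. The comparison asks whether added glycine was followed by other levels of the transcripts for a pathway that uses glycine as a building block.

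The pathway starts from phosphoribosyl pyrophosphate (PRPP), an activated ribose phosphate, and assembles the purine ring on it step by step. Glycine is incorporated whole into the ring at an early step, glutamine and aspartate give nitrogen, and formyl tetrahydrofolate gives single carbons. The first complete purine is inosine monophosphate (IMP), which a branch converts to adenosine monophosphate (AMP) and another to guanosine monophosphate (GMP). In dividing cells the route supplies DNA and RNA synthesis, and the liver is known as an organ with high activity of the pathway. The enzymes can assemble into clusters called purinosomes when purines are scarce.

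Sequences near the transcription starts were taken from RefSeq (GRCh38.p14), in windows from 250 bases before to 50 bases after each start. Windows were found for 8 of the 10 genes, with none used here for ADSL and IMPDH2. The first sequence is shown because PPAT and PAICS are transcribed away from each other from RefSeq starts only 137 bases apart. All bases between them precede both of these starts. In the annotation used for counting, the starts of the 2 genes were 126 bases apart. The stretch before the RefSeq start of PFAS is shown because PFAS changed most between the groups. The short pieces of GART and ATIC are shown for the GC boxes of the other gene that passed the test and for an E-box. Each is written 5′ to 3′ on the strand named, and capitals mark matches on either strand to a GC box, spelled GGGCGG. They also mark an E-box, spelled CACGTG, and an ETS core, spelled CCGGAA. The PFAS stretch, the short pieces and the last bases before PAICS lie inside the genes as bounded for counting. Those bounds differ from the RefSeq starts used here.
between PPAT and PAICS (chr4:56435616-56435751, + strand): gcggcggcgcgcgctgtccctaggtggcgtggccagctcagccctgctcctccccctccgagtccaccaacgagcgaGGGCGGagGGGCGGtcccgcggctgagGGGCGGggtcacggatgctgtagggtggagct
upstream of PFAS (chr17:8249039-8249288, + strand): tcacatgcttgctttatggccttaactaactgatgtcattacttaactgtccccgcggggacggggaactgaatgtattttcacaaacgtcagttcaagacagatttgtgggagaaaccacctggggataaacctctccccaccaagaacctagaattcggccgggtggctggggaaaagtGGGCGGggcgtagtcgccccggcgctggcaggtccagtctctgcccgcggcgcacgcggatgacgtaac
GC boxes of GART (chr21:33542142-33542171, - strand): cgtaGGGCGGggcagtgagGGGCGGtgccg
E-box of ATIC (chr2:215312001-215312030, + strand): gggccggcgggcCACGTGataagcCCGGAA

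A GC box, the element known to bind SP1-type factors, was found in the windows of 8 of 8 genes, against 48.3% of the 27305 genes with a RefSeq window. Between PPAT and PAICS there were 3 of them. The palindrome CACGTG, an E-box of the kind bound by MYC and its partners, was found for PPAT, PAICS and ATIC (3 of 8 genes), against 8.77% of all genes. PPAT and PAICS shared 1 such site, which lies 40 bases after the RefSeq start of PAICS and 182 bases before that of PPAT. The site of ATIC printed here begins 46 bases before its RefSeq start, and another begins 29 bases after it. Neither GART nor PFAS held an E-box in these windows. A CCAAT box, spelled as its name, was found for 2 of 8 genes (PRPS1 and GART) and in 39.7% of all genes. An ETS core was found for GART and ATIC, against 20.1% of all genes, and a TATA box, spelled TATAAA, for GART alone, against 14.0%. The core GCATGCGC of the factor NRF1 was found in 0 of 8 genes and 3.68% of all genes. These counts describe letters in the windows and not binding. All motifs were searched on both strands, and no match of one motif overlapped a match of another. A gene counted as holding a motif if any of its windows did, for members and all genes alike. The background was not limited to genes tested here and was not matched to the members in gene type or level.

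After glycine, the log2 change (glycine minus vehicle) was above 0 for 10 of 10 purine synthesis genes, with a median of 0.16, a 1.12-fold difference. The median over all tested genes was 0.00, and 50.8% of them were above 0. PFAS and GART rose, that is, they had an adjusted p under 0.05 in edgeR's quasi-likelihood test, so 2 of 10 genes were called higher, against a background of 6.71% of all tested genes. None of the 10 was called lower, against 6.54%, and none had an unadjusted p under 0.05 in that direction. DESeq2 and limma-voom also called 0 lower. The unadjusted p was under 0.05 with a higher level for 6 of 10 (PRPS1, GART, PFAS, PAICS, ADSL and ATIC), against 14.3% of all genes. For 7 of 10 every glycine library lay above every vehicle library, against 17.2% of all genes. Levels are given as CPM, counts scaled to a common library size, in bulk RNA, in which more cells of a given state and more RNA per cell cannot be told apart.

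Added up, the 10 genes took 1319, 1419 and 1351 CPM in the vehicle libraries and 1566, 1563 and 1521 CPM in the glycine libraries. The sum was higher in each glycine library than in any vehicle library. The group means were 1363 ± 51.2 and 1549.9 ± 25.5 CPM (SD, n = 3), a ratio of 1.14. Without ATIC, the most abundant of them, the sums still lay apart, at 1035 to 1096 CPM in vehicle and 1189.7 to 1222 CPM in glycine. The median coefficient of variation of the 10 genes was 5.94% in vehicle and 3.78% in glycine, close to the 6.13% and 4.99% of all 9111 tested genes that averaged 10 CPM or more. By position, the genes were spread over the genome, apart from PPAT (chr4:56393362-56435615) and PAICS (chr4:56435741-56464579), which adjoin.

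**Figure D1:**
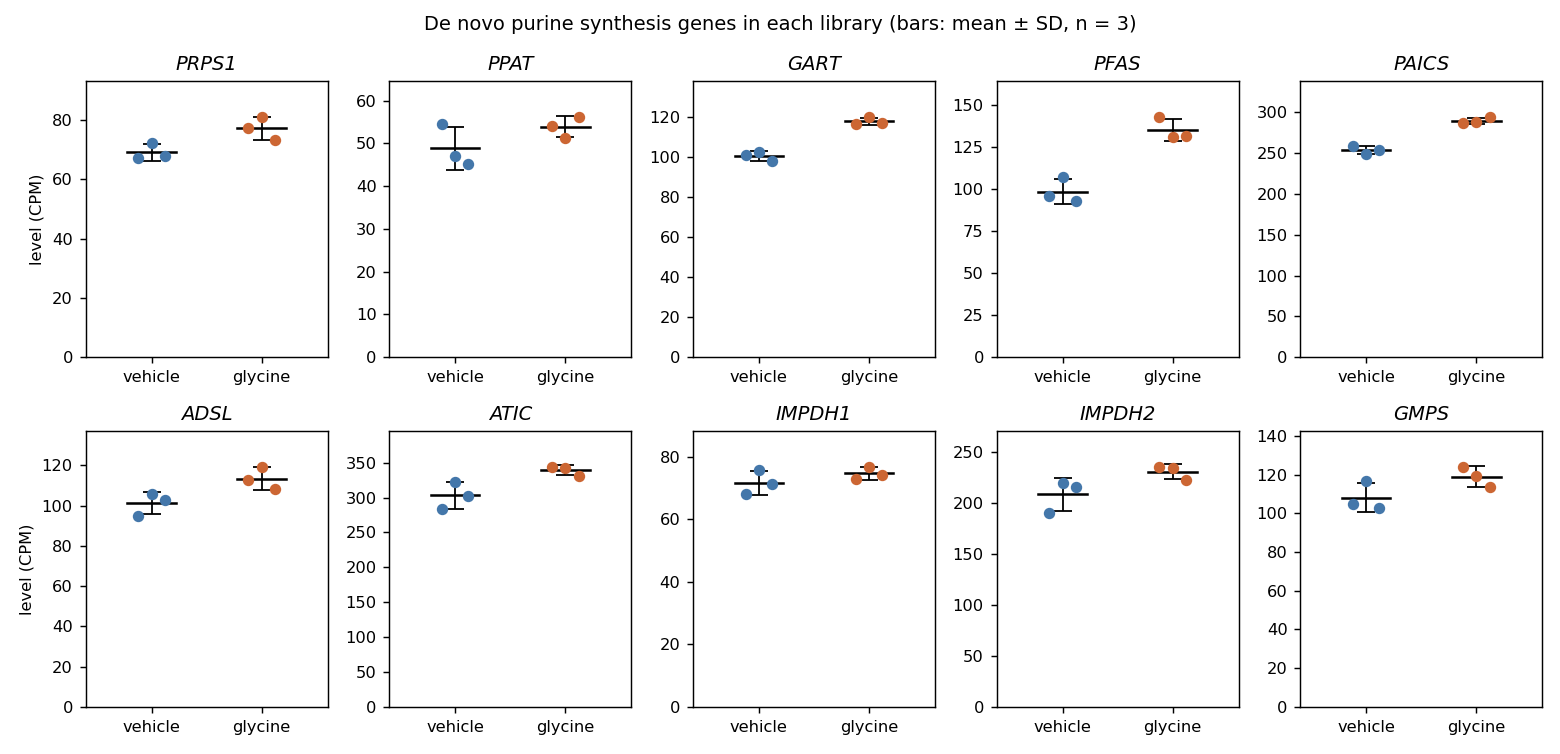
Each panel plots the level of 1 purine synthesis gene in CPM (y axis from 0) in the 3 vehicle libraries (blue) and the 3 glycine libraries (orange), with the mean and SD as black bars. The glycine points lie above all vehicle points in 7 panels, and for PFAS the nearest libraries of the groups stand at 107 and 131 CPM.

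PRPS1, a synthetase that makes PRPP from ribose phosphate and ATP, stood at 67.0, 72.1 and 67.9 CPM in vehicle and at 77.3, 80.9 and 73.2 CPM in glycine. The groups did not overlap, but the nearest libraries were close together. Its log2 change was 0.16 (95% interval 0.02 to 0.30), with an adjusted p of 0.124 (edgeR), so it did not pass the test. PPAT, the amidotransferase that commits PRPP to purine synthesis and is inhibited by the end products, was the least abundant of the 10 by counts. It measured 54.5, 47.0 and 45.1 CPM in vehicle and 54.2, 51.3 and 56.2 CPM in glycine. The first vehicle library was as high as the glycine libraries, and the groups overlapped. Its log2 change was 0.14 (−0.03 to 0.31, adjusted p = 0.276 in edgeR), an interval that runs from a slight fall to a 1.24-fold rise.

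GART is the enzyme that joins glycine to the growing molecule, and the same protein later adds a formyl group and closes the first ring. The gene (chr21:33503931-33543491) stood at 101, 103 and 97.8 CPM in vehicle and rose to 117, 120.0 and 117 CPM in glycine. The libraries of each group lay close together and the groups did not overlap. The log2 change was 0.23 (95% interval 0.10 to 0.36), a 1.17-fold rise, with an adjusted p of 0.0196 in edgeR's test. The call was lost in 5 of 6 fits that left out 1 library. Adjusted p (edgeR) was 0.0665 without vehicle replicate 1, 0.0523 without vehicle replicate 3, and 0.0845, 0.068 and 0.0728 without glycine replicates 1, 2 and 3, and only without vehicle replicate 2 did it stay under 0.05. The log2 change itself stayed between 0.21 and 0.25 in all 14 alternatives. Of the exon length of GART, 3.55% was shared with SON on the other strand, as was 2.23% of that of PPAT and 3.35% of that of IMPDH2 with other antisense genes, and the strand setting of the counts was not given in the sources used here.

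PFAS, which uses glutamine to add the next nitrogen to the intermediate made by GART, changed most. The gene (chr17:8247618-8270491) measured 95.4, 107 and 92.8 CPM in vehicle and 143, 131 and 131 CPM in glycine. All glycine libraries were well above all vehicle libraries. The means were 98.4 ± 7.51 and 134.8 ± 6.70 CPM (SD, n = 3), a 1.37-fold rise. The log2 change was 0.45 (95% interval 0.30 to 0.61), with an adjusted p of 0.00086 in edgeR's test, rank 344 of 15492 genes by p. It passed the threshold in all 14 alternatives, with a log2 change of 0.40 to 0.52 and an adjusted p of at most 0.00742 in edgeR, DESeq2 or limma-voom. Whether the change of PFAS differed from that of the other members was not tested.

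PAICS carries out the following carboxylation and the joining of aspartate. Its levels were 258, 249 and 253 CPM in vehicle and 287, 288 and 294 CPM in glycine. The spread within each group was small and the groups stood clearly apart. The log2 change was 0.19 (0.06 to 0.32), and the adjusted p of 0.0509 in edgeR's test was just above the threshold. It was under the threshold with total count scaling (0.0357), with a filter of at least 1 CPM in 3 libraries (0.0443), in DESeq2 (0.0277) and in limma-voom (0.0424).

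ADSL removes fumarate from the product of PAICS and acts again in the branch to AMP. It measured 95.0, 106 and 103 CPM in vehicle and 112, 119 and 108 CPM in glycine. ATIC, the enzyme of the last steps to IMP, measured 284, 323 and 302 CPM in vehicle and 344, 343 and 331 CPM in glycine. In both genes the lowest vehicle library was the first, and the highest vehicle library came close to the lowest glycine library without reaching it. The log2 changes were 0.16 for ADSL (0.02 to 0.30, adjusted p = 0.129) and 0.16 for ATIC (0.02 to 0.31, adjusted p = 0.135), and neither passed edgeR's test.

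Past IMP, 0 of 3 genes passed edgeR's test, which called 13.3% of all tested genes in either direction. A set of 3 genes is too small to tell 0 calls from that share. IMPDH1 and IMPDH2 are isoenzymes that oxidise IMP on the way to GMP, the rate-limiting step of guanine nucleotide synthesis. IMPDH1 stood at 68.1, 75.7 and 71.3 CPM in vehicle and 73.0, 76.8 and 74.2 CPM in glycine, and the groups overlapped. Its log2 change of 0.06 (−0.08 to 0.20, adjusted p = 0.601 in edgeR) was the lowest of the 10, and its interval leaves room for a rise of up to 14.5%. IMPDH2, the more abundant form, measured 190.2, 219.9 and 215 CPM in vehicle and 235, 234 and 222 CPM in glycine. Its groups were separated by a narrow gap, with a log2 change of 0.14 (−0.00 to 0.29, adjusted p = 0.196). GMPS, which aminates the product of IMPDH to GMP, measured 105, 117 and 103 CPM in vehicle and 124, 119 and 113 CPM in glycine. The second vehicle library lay within the glycine range, and the log2 change was 0.14 (−0.01 to 0.28, adjusted p = 0.214).

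**Figure D2:**
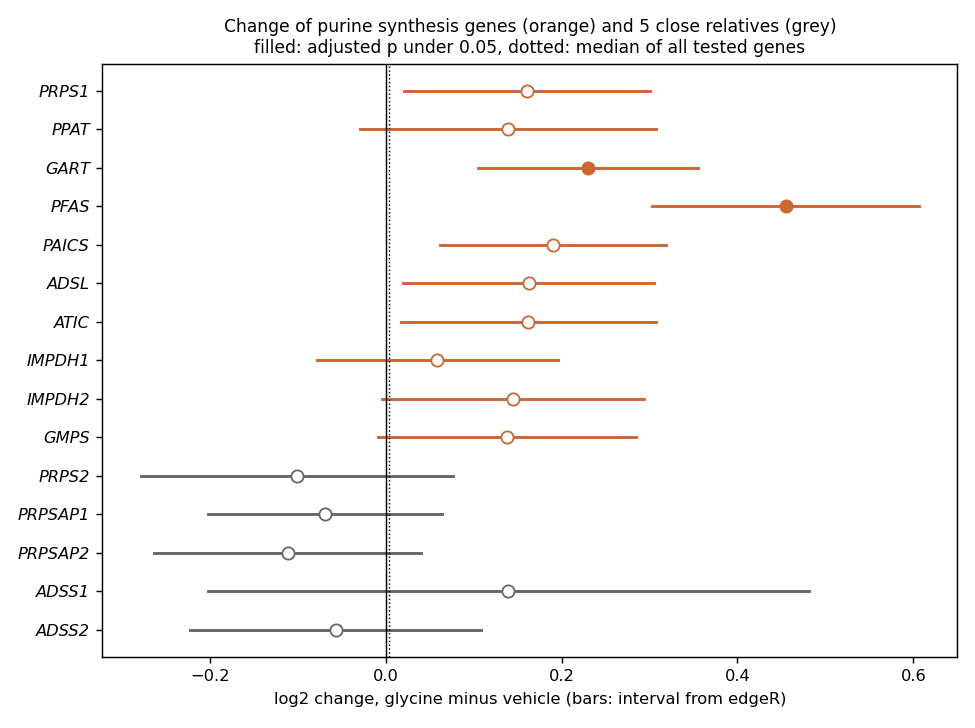
Points give the log2 change (glycine minus vehicle, x axis) of the 10 purine synthesis genes in pathway order (orange) and of 5 close relatives (grey), and bars give the 95% interval from edgeR. The filled points, GART and PFAS, passed an adjusted p of 0.05. All orange points lie right of 0, and the 3 relatives of PRPS1 lie left of it with intervals that include 0.

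Among the relatives of PRPS1 and the synthetases of the AMP branch no gene passed the test. PRPS2, the other widely expressed PRPP synthetase, stood at 28.6 ± 2.09 CPM in vehicle and 26.7 ± 2.37 CPM in glycine (SD, n = 3), a log2 change of −0.10 (−0.28 to 0.08). For PRPSAP1 and PRPSAP2, proteins that bind the synthetases, the log2 changes were −0.07 (−0.20 to 0.06) and −0.11 (−0.26 to 0.04). The testis form PRPS1L1 had no count in any library and was not tested. Of the adenylosuccinate synthetases, which take IMP toward AMP, ADSS2 had a log2 change of −0.06 (−0.22 to 0.11) and the low ADSS1, at about 2 CPM, one of 0.14 (−0.20 to 0.48). For these 5 genes edgeR's adjusted p ran from 0.342 to 0.685. In both lists 0 genes had an unadjusted p under 0.05, and DESeq2 and limma-voom called 0 as well. Over all tested genes edgeR called 13.3% in either direction, and 5 genes are too few to tell 0 calls from that share.

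Ratios of 2 genes within 1 library do not depend on how libraries are scaled, so 4 were compared. The log2 ratio of PRPS1 to PRPS2 was 1.36, 1.29 and 1.18 in vehicle and 1.39, 1.66 and 1.54 in glycine. Every glycine library had a higher ratio, by 0.26 on average, with a two-sided exact permutation p of 0.1, the smallest that 3 against 3 libraries allow. The ratio of IMPDH1 to IMPDH2 was −1.54 ± 0.0558 in vehicle and −1.63 ± 0.056 in glycine (SD, n = 3, exact permutation p = 0.2). ADSS2 to IMPDH2, the entries of the AMP and GMP branches, gave −2.36 ± 0.207 and −2.56 ± 0.148 (exact permutation p = 0.3). PPAT to PAICS, the pair that shares an upstream stretch, gave −2.38 ± 0.125 and −2.43 ± 0.0543 (exact permutation p = 0.9). Adjusted over the 4 ratios, these p-values were 0.4, 0.4, 0.4 and 0.9, and no ratio could have reached 0.05 in this design.

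**Figure D3:**
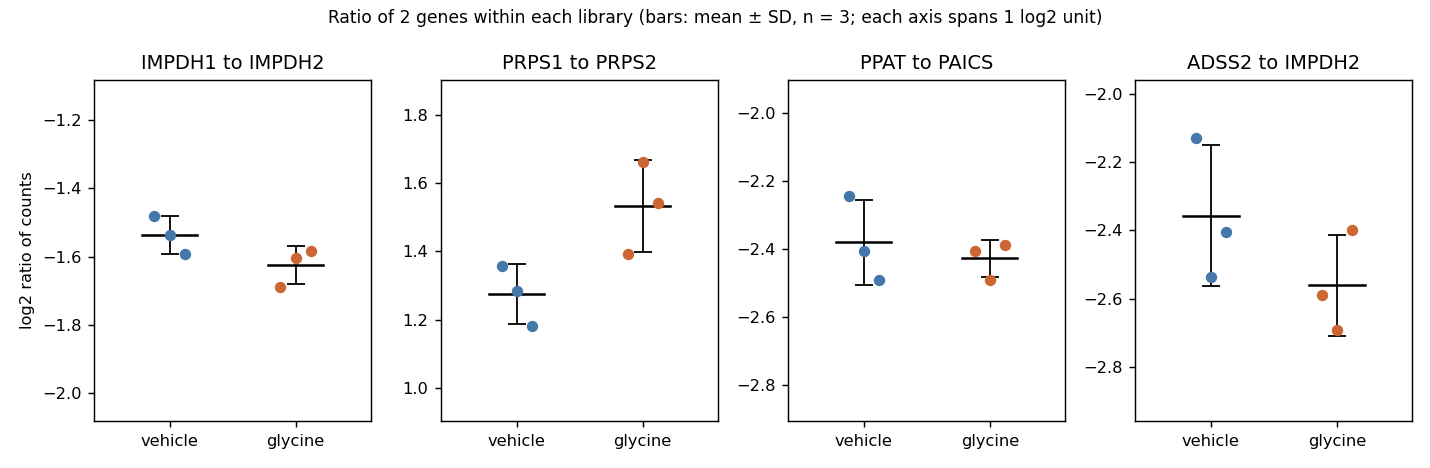
Each panel plots the log2 ratio of the counts of 2 genes in each library (y axis, spanning 1 log2 unit), for vehicle (blue) and glycine (orange), with mean and SD in black. The groups separate in the PRPS1 to PRPS2 panel, with vehicle up to 1.36 and glycine from 1.39, and overlap in PPAT to PAICS.

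Levels between genes were compared per length, as CPM per kilobase of summed exon length. In vehicle, ATIC (77.2 ± 4.92, SD, n = 3) and IMPDH2 (75.2 ± 5.76) were highest and their ranges overlapped. PAICS (33.8) and PRPS1 (30.3) followed, each apart from its neighbours. IMPDH1 came next (19.6), then PFAS (15.2) and ADSL (14.2), whose ranges overlapped, then GART (13.0) and GMPS (12.2), which also overlapped, and PPAT last (8.99 ± 0.918). The committing enzyme thus had the lowest level per length, 8.58-fold under ATIC. In glycine PFAS stood at 20.8 and IMPDH1 at 20.4, so that they changed places, with ranges that overlapped. The order depended on the length used. With the length of the principal transcript, an alternative chosen after seeing the data, GART went from place 8 to place 5 in vehicle, at 28.8, while GMPS became lowest, at 12.4, with a range overlapping that of PPAT at 13.3. ATIC (137) and IMPDH2 (127) remained highest.

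**Figure D4:**
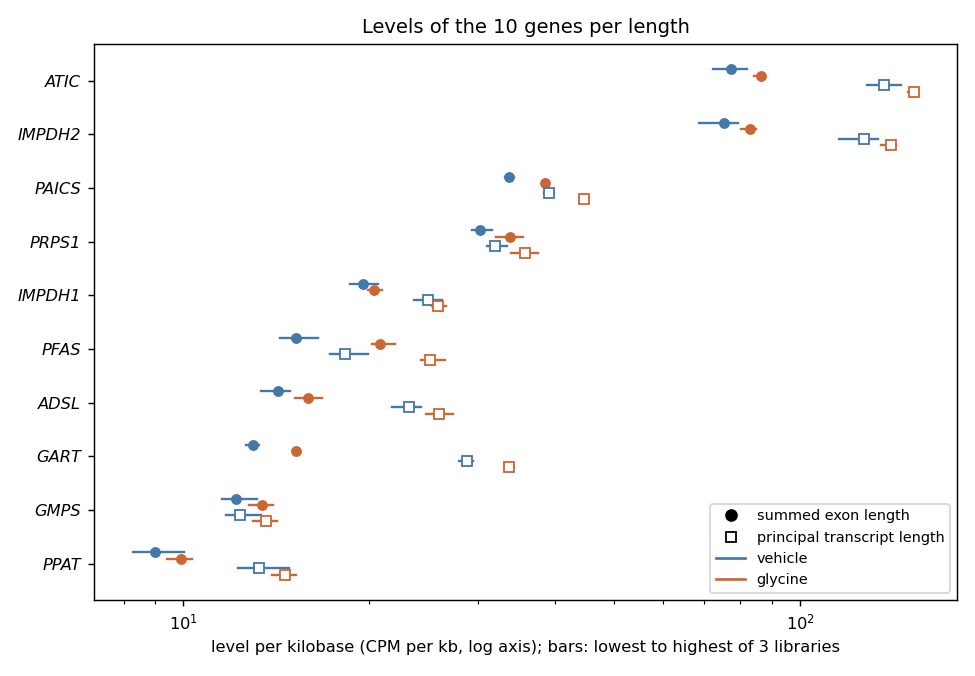
Levels of the 10 genes in CPM per kilobase (x axis, log scale) in vehicle (blue) and glycine (orange), as the mean of 3 libraries with a bar from the lowest to the highest. Circles use summed exon length and squares the principal transcript. ATIC and IMPDH2 lead with either length, and GART shows the largest shift between them, from 13.0 to 28.8 in vehicle.

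The arrangement of the genes was also compared. A coding neighbour in head-to-head orientation with a start within 1000 bases was found for 4 of 10 members, which include PPAT and PAICS as neighbours of each other, against 17.6% of 12688 tested coding genes. PPAT and PAICS (chromosome 4) had log2 changes of 0.14 and 0.19. SON, which lies head to head with GART and encodes a splicing cofactor, stood at 315 CPM in vehicle and 307 CPM in glycine, a log2 change of −0.04 (−0.21 to 0.13, adjusted p = 0.803 in edgeR), against 0.23 for GART. CTC1, head to head with PFAS and part of a telomere maintenance complex, measured 20.2 CPM in vehicle and 25.2 CPM in glycine, with a log2 change of 0.32 (0.15 to 0.48, adjusted p = 0.0151 in edgeR), which became 0.25 with an adjusted p of 0.0923 without glycine replicate 3. CTC1 and SON were picked for their position after their values were seen. From the minus-strand start to the plus-strand start, the distance was −873 bases for GART and SON and −426 for PFAS and CTC1. These pairs thus overlapped at their starts, unlike PPAT and PAICS, at 126 bases. All these starts were those of the annotation used for counting, not of RefSeq. The exons of PFAS shared no base with another gene.

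The genes whose pattern over the 6 libraries was most like that of PFAS were MFSD13A, RDX and PHF19. Their root mean square differences from PFAS in centred log2 CPM were 0.0397, 0.0482 and 0.0494, among 9110 candidates that averaged 10 CPM or more. Their log2 changes were 0.42, 0.40 and 0.39. This likeness includes the difference between the groups itself.

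Among genes that supply or use what the pathway needs, 8 of 59 tested genes (of 68 listed) passed the test as higher and 5 as lower, against 6.71% and 6.54% of all tested genes, and the list's median was 0.05 on the log2 scale. The share called lower (8.47%) was near that background. The 8 higher calls became 4 without vehicle replicate 1, and 3, 5 and 4 without glycine replicates 1, 2 and 3, while the 5 lower calls stayed at 5. Of the enzymes that supply folate-bound carbon, 3 of 10 rose and 1 fell. MTHFD1L, a mitochondrial formyl tetrahydrofolate synthetase, rose from 94.1 ± 5.26 to 113.8 ± 2.97 CPM (SD, n = 3; log2 0.27), and the low MTHFD2L from 6.58 ± 0.448 to 8.52 ± 1.13 CPM (0.38). ALDH1L1, which burns formyl tetrahydrofolate to carbon dioxide and so removes the donor of purine carbons, fell from 69.5 ± 4.50 to 42.6 ± 3.53 CPM (log2 −0.71, adjusted p = 5.21e-05 in edgeR). The groups did not overlap for any of these genes.

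Of the 8 purine salvage genes, which recycle bases and nucleosides, 2 rose and 0 fell, against 6.71% and 6.54% of all tested genes. By edgeR, DESeq2 and limma-voom alike 0 were called lower, and 0 had an unadjusted p under 0.05 in that direction. PNP, which splits inosine and guanosine, rose from 45.7 ± 2.19 to 59.3 ± 1.89 CPM (log2 0.37), and ADA, adenosine deaminase, from 7.79 ± 1.20 to 10.1 ± 0.568 CPM (0.37). ADA lost its call without each library but vehicle replicate 2 (edgeR adjusted p 0.0663 to 0.183). HPRT1, the enzyme that returns hypoxanthine and guanine to nucleotides, had a log2 change of 0.08 (−0.08 to 0.24) and did not pass the test. In breakdown and interconversion 1 of 10 tested genes rose and 1 fell, and both were AMP deaminases, which turn AMP back to IMP. AMPD2, the main form here, fell from 97.6 ± 1.53 to 71.9 ± 1.68 CPM (log2 −0.44), while the low AMPD3 rose from 1.51 ± 0.122 to 2.73 ± 0.210 CPM (0.85). Of the 14 genes of that list, 4 were not tested, among them XDH, xanthine dehydrogenase, with no count.

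Among the nucleotide kinases, AK4, an adenylate kinase of the mitochondrial matrix, fell from 195.8 ± 8.63 to 134.6 ± 4.04 CPM (log2 −0.54). In de novo pyrimidine synthesis 1 of 5 genes rose, against 6.71% of all tested genes. It was DHODH, the mitochondrial dehydrogenase of that route, which went from 16.0 ± 0.709 to 21.5 ± 0.772 CPM (0.43). CAD, which starts pyrimidine synthesis, had a log2 change of 0.11 (−0.06 to 0.28). Of 4 tested nucleoside carriers (of 8), 2 fell, against 6.54% of all tested genes. SLC29A2 went from 9.93 ± 1.14 to 6.84 ± 0.670 CPM (−0.54) and SLC29A4 from 78.9 ± 5.40 to 54.4 ± 3.48 CPM (−0.54). The 5 lower calls, with PNP, AMPD3 and DHODH among the higher ones, stayed under the threshold whichever library was left out. The other higher calls did not. MTHFD1L lost its call without vehicle replicate 1 or glycine replicate 1 (adjusted p 0.0554 and 0.0795), and MTHFD2L without any 1 of the 6 libraries (0.0521 to 0.200). All these values are from edgeR. Other genes shared 12.6% of the exon length of AMPD2, 11.9% of that of PNP and 10.3% of that of SLC29A2, so their counts may hold reads of neighbours.

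Of 6 transcription factors known to act on purine or nucleotide genes (MYC, MAX, MNT, ATF4, E2F1 and NRF1), 0 were called in either direction by edgeR, DESeq2 or limma-voom. Over all tested genes edgeR called 13.3% in either direction, and 6 genes are too few to tell 0 calls from that share. Their log2 changes lay between −0.13 and 0.07, with a median of −0.04. The unadjusted p was under 0.05 for 1 of them, E2F1, at −0.13.

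**Figure D5:**
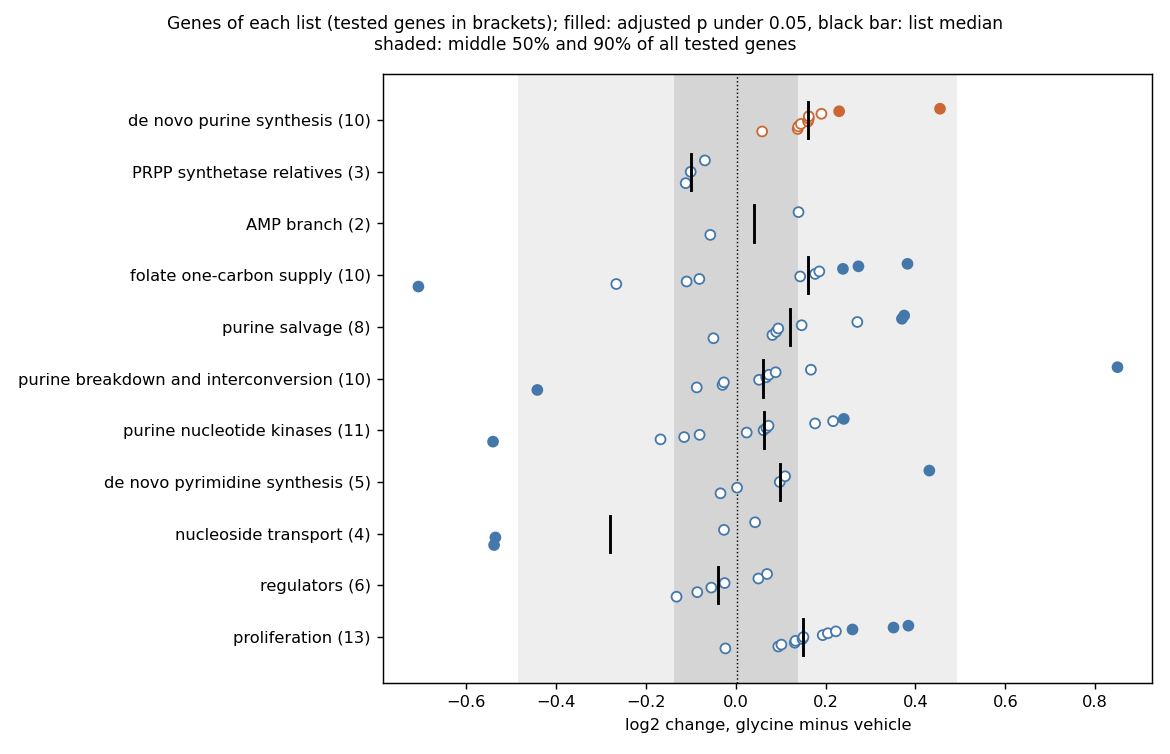
Each point is the log2 change (glycine minus vehicle, x axis) of a tested gene, in 1 row per list with the number tested in brackets, and black bars are list medians. Filled points passed an adjusted p of 0.05, and grey shading marks the middle 50% and 90% of all tested genes. The de novo purine synthesis row (orange) lies right of 0, with a median of 0.16, while the regulators centre at −0.04.

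Other marks of cell state moved beside the purine synthesis genes. Of 13 proliferation genes, 12 had a log2 change above 0, against 50.8% of all tested genes, with a median of 0.15. Of the 13, 3 were called higher, against 6.71%: MCM5 (0.35) and MCM7 (0.38), subunits of the replicative helicase, and CCNB1 (0.26), the mitotic cyclin. All 13 proliferation genes together summed to 2825 to 2940.0 CPM in vehicle and 3158 to 3316 CPM in glycine. CCNB1 lost its call without vehicle replicate 1 or glycine replicates 1 or 2 (edgeR adjusted p 0.071, 0.0532 and 0.068). Of 10 hepatocyte markers, all of them detected, 2 were called lower, against 6.54% of all tested genes. These were TTR (log2 −0.32) and APOA1 (−0.26), and the list summed to 31503 to 35428 CPM in vehicle and 27610 to 31119 CPM in glycine. A log2 change above 0 was found for 2 of the 10, APOA2 (0.19) and APOB (5.81e-05). ALB, which went from 7688 ± 2020 to 5477 ± 869 CPM (SD, n = 3), weighs heavily in that sum. It was not called (edgeR adjusted p = 0.0764), and its groups overlapped. APOA1 had an adjusted p of 0.0483 and lost its call in 9 of 14 alternatives. The part of these changes in the levels of purine synthesis genes was not tested.

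Of 13 markers of fibroblasts, endothelium and blood cells, 9 were under 1 CPM on average and CD3E had no count. LYZ, at 2229 CPM in vehicle and 1787 CPM in glycine, made up nearly all of the list's sum, which was 2134 to 2336 CPM in vehicle and 1706 to 1863 CPM in glycine. Without LYZ the sum was 10.3 to 11.1 CPM and 14.0 to 15.7 CPM. COL1A1 and CD14 were higher after glycine (log2 1.03 and 0.98), at a few CPM each, and LYZ and VWF were lower (−0.32 and −1.18). VWF lost its call without each library but vehicle replicate 2 (edgeR adjusted p 0.0558 to 0.102), and LYZ without glycine replicate 1 or 2 (0.0574 and 0.0775). Of the exon length of LYZ, 34.0% was shared with an antisense gene, so its counts may hold reads of that gene.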

How the data were processed

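HepG2 RNA libraries were grouped by their titles into vehicle and glycine (n = 3 each, described as independent replicates). The authors deposited whole-number read counts per gene, not normalized. Per the labels, reads were processed with Trimmomatic 0.36, STAR 2.5.2b and featureCounts (Subread 1.5.2) on GRCh38; strand setting and annotation release were not given in the sources used here. Of 57500 gene IDs, 56898 were in GENCODE 29, 54784 with the same start and end, and 41395 had a symbol. Coordinates are GRCh38. No row lacked a gene.

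Counts were tested with edgeR 4.0.16 in R 4.3.3 (quasi-likelihood, two-sided, group only) after its expression filter (minimum count 10, minimum total 15) and scaling by the trimmed mean of M values. P-values were adjusted by Benjamini-Hochberg over 15492 genes, threshold 0.05. Intervals are 95%. CPM used scaled library sizes. Ratios used counts plus 0.5. The fit was tested on simulated data with 200 changed genes of all levels, split evenly between 2-fold and 1.2-fold changes. It called 92 of the former but only 14 of the latter, so most small changes were missed there. Members carried 1621 to 20056 counts per library, a counting error of 2.48% to 0.706%, and the common biological coefficient of variation was 7.29%. Counting error covers sampling of reads only, since there were no molecular identifiers. Replicate libraries differed by more than sampling noise (chi-square per degree of freedom 6.97 to 26.8), so none was counted as a duplicate. Pseudogenes of the members held at most 90 counts over all libraries. Alternatives were other scalings and filters, DESeq2 1.42.0, limma 3.58.1 (voom), a fit with a replicate block, and fits without each library.

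The members and all lists were chosen with earlier results of these data known. Named genes are the members, the PRPP synthetase relatives and AMP branch, list genes past the threshold (some are not reported here), and the 3 genes most like PFAS. HPRT1, CAD and the neighbours CTC1 and SON were named outside that rule after their values were seen, as were the regulators, XDH and the marker CD3E.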

Additional observations from a re-analysis of the deposited data

How the results depend on the processing

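All 10 purine synthesis genes kept a log2 change above 0 in each of 14 alternatives, with a median of 0.12 to 0.20. Leaving out 1 library gave 1 or 2 of them called higher (2 only without vehicle replicate 2), 0 lower, and 3 to 8 related genes higher, against 2, 0 and 8 with all libraries: 4 without vehicle replicate 1, and 3, 5 and 4 without glycine replicates 1, 2 and 3. The number of related genes called lower was 5 in each of these. PAICS joined the calls under 4 settings, which gave 3 called higher. Of the uncalled genes, ADSS2 (−0.12 to 2.37e-06) and SON (−0.11 to 0.037, 0.0067 without glycine replicate 2) crossed 0 when 1 library was left out. The cause was not tested.

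With the replicate number as a replicate block, 2 members were called higher and 0 lower, 8 related genes were higher and 5 lower, and 866 and 918 of all genes were higher and lower against 1040 and 1013. Same-numbered libraries did not deviate together (correlations −0.0577, −0.0268 and −0.0026), so the numbers were not taken to pair them. No library correlated best with its own number: the best partners of vehicle replicates 1, 2 and 3 were glycine replicates 3, 1 and 2 (correlations 0.214, 0.214 and 0.18), and no label gives shared days for these pairs, which were not fitted. The level of each gene per length was higher with the principal transcript length, an alternative added after seeing the data. For GMPS the shift in vehicle, from 12.2 to 12.4, was smaller than its SD of 0.858.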
